A study of Nasonia vitripennis with 76 samples.

Results

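Heads and abdomens of adult haploid males of the parasitoid wasp *Nasonia vitripennis* were compared across genes by sequencing of polyadenylated RNA. The comparison takes the 20 libraries whose labels give a male of ploidy 1N, 10 from heads and 10 from abdomens, of 76 libraries in the series. All wasps came from the TRA line, a single line of induced raised ploidy that goes back to a knockdown of *transformer*, and were collected 1 day after emergence. 5 heads and 5 abdomens came from generation F15, and 5 heads and 5 abdomens from generation F3. Diploid (2N) males of the same generations gave 10 heads and 8 abdomens, and 2N females of generations F14 and F2 gave 10 heads and 8 abdomens. These 2N groups were used to ask whether the tissue difference of haploid males was shared. Triploid (3N) females of F14 and F2, with 5 heads and 5 abdomens from each generation, entered only the scale shared by all groups and the fit of all 16 groups. The groups are all of the TRA line, so no comparison with an untreated line enters here. Whether a library holds 1 wasp or a pool, whether its head and abdomen partners came from the same wasps, and whether antennae stayed on the heads is not given in the labels. The p-values therefore measure only the spread between these libraries, which may be technical. The labels give no batch, and generation cannot be told apart from any batch that runs with it.

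In Hymenoptera, males usually develop from unfertilised eggs and are haploid, so that sperm form without a reductional division. The head of an adult wasp carries the compound eyes, the antennae, the mouthparts and the brain. The abdomen holds the gut, most of the fat body, the oenocytes under the cuticle, and in males the testes and accessory glands. In bulk tissue, fewer cells of a type and less RNA per cell cannot be told apart, and a level is a share of a library's counts. Levels are given as CPM, the share of a gene in the TMM-scaled counts of a library. They are not corrected for transcript length, and so are compared between libraries and not between genes.

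Total counts ran from 15.3 to 26.8 M in heads and from 15.3 to 45.9 M in abdomens, with medians of 17.5 and 24.6 M. Of the tissue check genes, *Lop1*, *Pdf* and *Syt1* separated all heads from all abdomens, and *Or1* did not. *Or1* stood at 22.3 CPM in the abdomen A79, above the heads A1A at 9.08 CPM and A2A at 6.58 CPM. *Lop1*, which encodes a long-wavelength opsin of the photoreceptors, ran from 1575 to 15470 CPM in heads, against 0 to 2.36 CPM in abdomens. *oskar*, a gene of the germ plasm that is abundant in ovaries, ran from 3.75 to 6.37 CPM in heads and from 0.467 to 7.11 CPM in abdomens, and *nanos*, a second ovary marker, had 1 count over all heads and 7 over all abdomens. 4 libraries stood apart within their groups, the heads A1A and A2A of F3 and the abdomens A78 and A79 of F15. A78 and A2A had the lowest mean correlations of log2 levels with their own group, 0.961 and 0.962, against 0.974 to 0.990 in the other 18 libraries. A1A at 0.974 and A79 at 0.978 lay within that range, and stood apart in the genes given next. A78 also had the lowest total count of the abdomens, 15.3 M, and the fewest genes with a count, 11252. In A79, 13 genes with at least 20 CPM in heads were at least 5 times as high as in every other abdomen, among them *Or1*, *CCE-B6* and *CYP6AQ8*. Each of those 13 genes was also lower in A1A and in A2A than in every other head, as were 1482 of the 6064 genes with at least 20 CPM in heads (24.4%). For the named ones, *Or1*, *CCE-B6* and *CYP6AQ8*, and for counts that the 4 libraries changed, values without them are given beside the main ones. Among 107 genes named for the tissue difference, 19 moved by over 1.5 times without the 4 libraries.

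Expression differed between head and abdomen for most of the genes. Of 11627 genes tested, 8242 passed an adjusted p of 0.05 (70.9%), 4158 higher in heads (35.8%) and 4084 lower in heads (35.1%), by the quasi-likelihood test of edgeR with generation as a block and Benjamini-Hochberg adjustment. The median log2 difference, head minus abdomen, over all genes tested was 0.01. Shares of gene lists given below stand beside these 35.8% higher and 35.1% lower. Large differences lay more often on the abdomen side. Differences of at least 1 on the log2 scale were found for 2319 genes higher in heads and 2709 lower in heads, and differences of at least 3 for 858 and 1139 genes. At 32-fold or more, 237 genes were higher in heads (2.04%) and 669 lower (5.75%), and at a log2 difference of at least 10, 21 were higher and 182 lower. All 10 heads lay above all 10 abdomens for 1647 genes (14.2%) and below them for 1467 genes (12.6%). Without A1A, A2A, A78 and A79 these counts were 2218 and 2029. Within F15, 7177 genes passed the test (61.7%), and within F3, 7811 genes (67.2%).

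**Figure D1:**
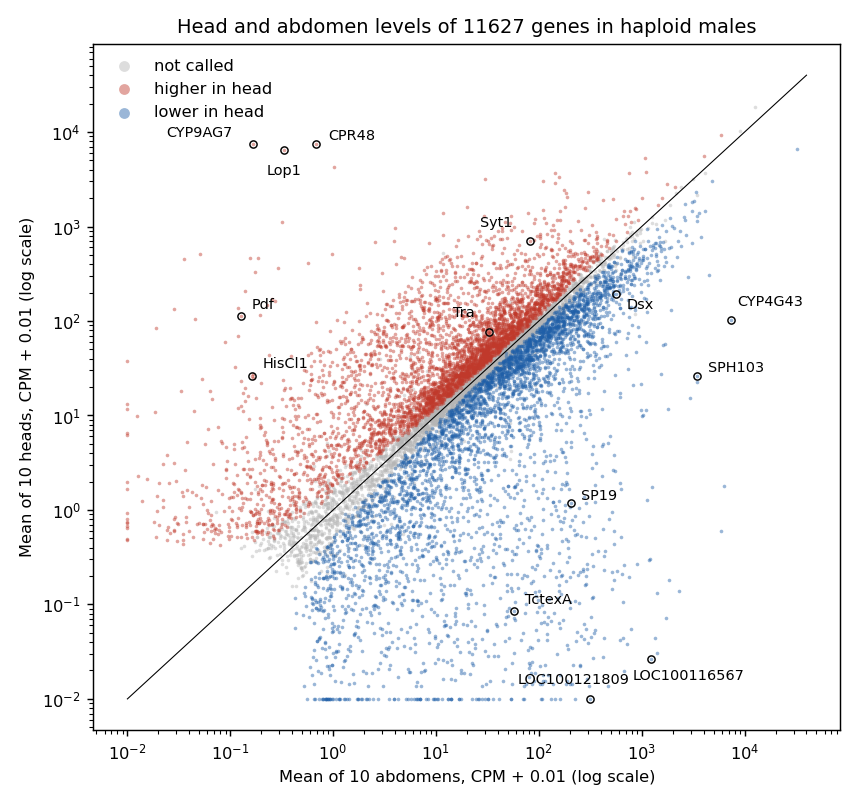
Mean CPM of each tested gene in the 10 heads (y axis) and the 10 abdomens (x axis) of haploid males, both on a log scale after adding 0.01, with genes that passed the test in colour. Points spread further below the diagonal than above it, and 669 genes were at least 32-fold lower in heads against 237 at least 32-fold higher.

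The 3 largest contrasts on the head side were those of a P450, an opsin and a cuticle protein. *CYP9AG7*, a cytochrome P450, reached 346 to 16300 CPM in heads with a median of 7377 CPM, against at most 1.42 CPM in any abdomen. The difference was 14.87 ± 1.23 on the log2 scale (adjusted p = 1.01e-09, edgeR). Here and below, ± after a log2 value is a standard error worked back from the F statistic of the test. After a mean in CPM, ± is the SD. Heads averaged 12800 ± 2690 CPM in F15 and 2162 ± 2060 CPM in F3 (SD, n = 5 each), and A1A and A2A were the lowest heads. *Lop1* was 14.47 ± 0.87 higher on the log2 scale in heads (adjusted p = 6.24e-12, edgeR), where its median was 5107 CPM, against 0.107 CPM in abdomens. *CPR48*, a cuticle protein of the Rebers-Riddiford family, which bind chitin, ran from 235 to 27730 CPM in heads with a median of 5216 CPM. 8 of the 10 abdomens had no *CPR48* count and the highest stood at 5.34 CPM. Its head levels split by generation, with a mean of 1332 ± 1650 CPM in F15 and 13670 ± 8710 CPM in F3.

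Other genes with the largest contrasts carry no symbol. *LOC107981322* ran from 104 to 1007 CPM in heads and reached at most 0.158 CPM in abdomens (log2 difference 13.74 ± 0.47). *LOC100121036* had a head median of 541 CPM and at most 0.195 CPM in abdomens (13.15 ± 0.51). *LOC100313520* had medians of 151 CPM in heads and 0 CPM in abdomens (12.38 ± 0.41). No abdomen had a count of *LOC100118127*, which was at least 3130-fold higher in heads against a floor of 3 counts over the 10 abdomens. That bound uses the mean of all 10 heads, which ran from 48.6 to 92.6 CPM in F15 and from 0.885 to 7.52 CPM in F3. *LOC100121718* had 15136 counts in heads and 2 in abdomens, a ratio of 9710 with a 95% counting interval of 2690 to 80200. In all 5 genes the heads lay above the abdomens without overlap. Of the genes with symbols, *NV_30029* ran from 47.2 to 396 CPM in heads and reached at most 0.437 CPM in abdomens (10.29 ± 0.48). *SDR* had medians of 9.10 CPM in heads and 0.358 CPM in abdomens (4.88 ± 0.33). *NV_30145* had medians of 6.11 and 0 CPM (6.70 ± 0.67), and its difference was larger in F15 than in F3 by 4.04 ± 1.15 (adjusted p = 0.0194, edgeR).

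**Figure D2:**
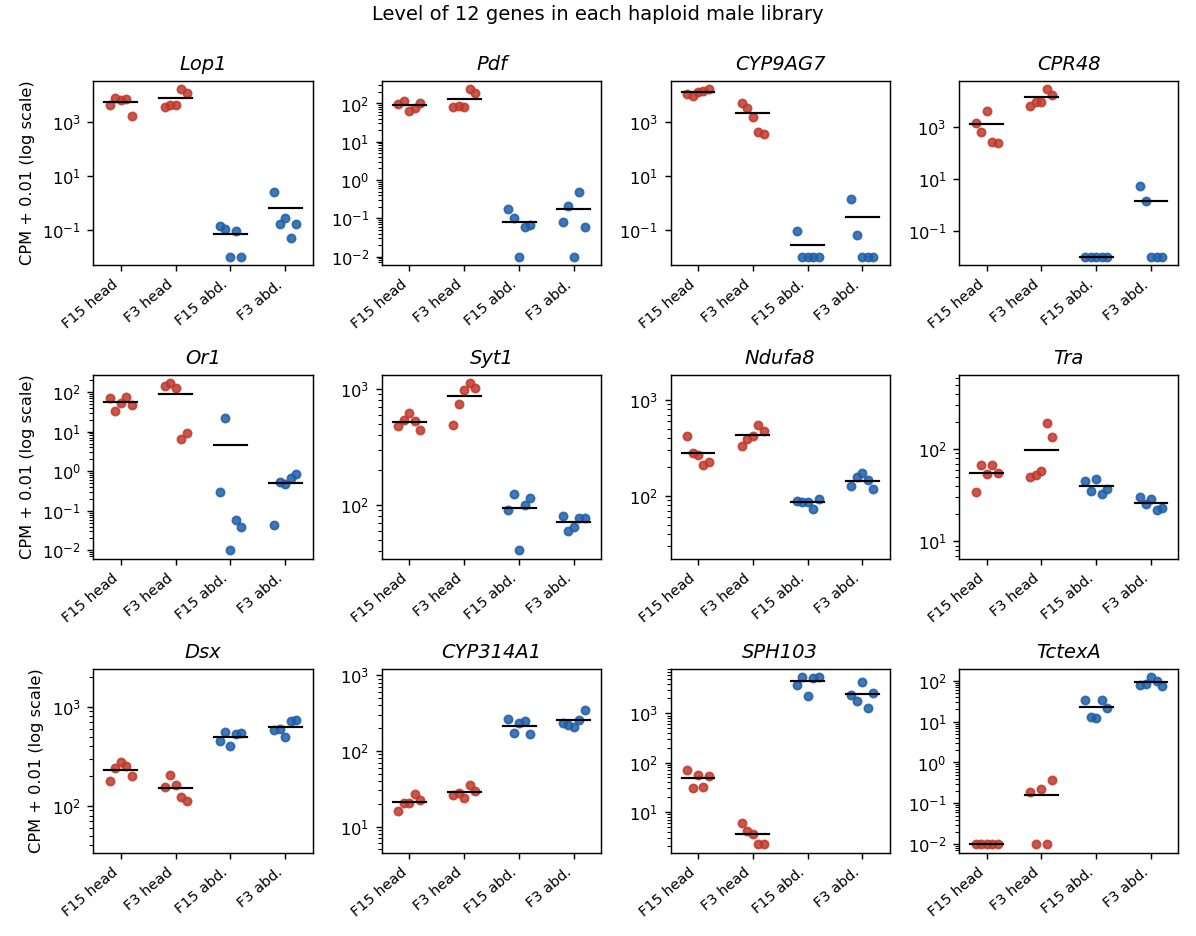
CPM + 0.01 on a log scale in each haploid male library for 12 genes, with heads left of abdomens and F15 left of F3, and a bar at the group mean. Heads and abdomens do not overlap except for *Or1*, where A1A and A2A are low among heads and A79 stands at 22.3 CPM among abdomens, and *Tra*.

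Neurons signal through transmitter-gated channels, fire through voltage-gated sodium channels and release transmitter by vesicle fusion. Of 22 tested genes of a list of neuronal receptors, channels and release genes, 21 were higher in heads (95.5%) and 1 did not pass the test. The list's median log2 difference was 3.49, against 0.01 for all genes. For 16 of the 22 (72.7%, against 14.2% of all genes tested), all heads lay above all abdomens. *Syt1*, the calcium sensor of synaptic vesicles, ran from 438 to 1116 CPM in heads with a median of 581 CPM, against 40.5 to 124 CPM in abdomens with a median of 78.8 CPM (log2 difference 3.04 ± 0.23, adjusted p = 2.32e-10, edgeR). *Para*, the voltage-gated sodium channel, had medians of 146 and 10.3 CPM in heads and abdomens (4.08 ± 0.38). *Nsf*, an ATPase of vesicle fusion, differed by 3.41 ± 0.15 and *Gnao*, a G protein subunit abundant in neurons, by 4.14 ± 0.22.

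Among the receptors, *HisCl1*, a histamine-gated chloride channel that in *Drosophila* acts downstream of photoreceptors, had a median of 25.6 CPM in heads against 0.153 CPM in abdomens (log2 difference 7.33 ± 0.43). *Dop2*, a dopamine receptor, had medians of 21.1 and 0.205 CPM (6.88 ± 0.29). The chloride channel subunit *LCCH3*, of the GABA receptor family, differed by 3.91 ± 0.17, *GluCl*, a glutamate-gated chloride channel, by 3.34 ± 0.43, and *pHCl*, a pH-sensitive one, by 2.68 ± 0.13. Nicotinic acetylcholine receptor subunits, which carry fast excitation in insect brains, ranged from 5.09 (*nAChRa2*) to 0.92 (*nAChRb3*) among those called. *nAChRa1* and *nAChRa12* differed by 4.97 ± 0.42 and 3.27 ± 0.14. *nAChRa3* did not pass the test, at 0.13 ± 0.55 (adjusted p = 0.845, edgeR), and was the single member outside the pattern.

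Neuropeptide genes were 3 higher and 1 lower of 4 tested. *Pdf*, the pigment-dispersing factor of circadian clock neurons, ran from 62.9 to 233 CPM in heads with a median of 93.4 CPM, against at most 0.482 CPM in abdomens (log2 difference 9.85 ± 0.43). Its 2 highest heads were A2A and A1A. *ACP*, the adipokinetic hormone/corazonin-related peptide, and its receptor gene *Acpr* differed by 3.95 ± 0.37 and 4.29 ± 0.15. *Acpr* was the gene with the lowest adjusted p of this list (1.27e-15, edgeR), and ran from 66.8 to 149 CPM in heads and from 3.17 to 7.55 CPM in abdomens. *Akhr*, the receptor of the adipokinetic hormone that mobilises fat body lipid, went the other way, with medians of 21.5 CPM in heads and 82.7 CPM in abdomens (-2.07 ± 0.24).

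Olfactory receptor neurons of insects sit mainly on the antennae, and each receptor works together with a shared co-receptor. Of 214 odorant receptor genes, 82 had enough counts to be tested, with a median log2 difference of 2.19. Of these 82, 48 were higher in heads (58.5%) and 7 lower (8.54%). The summed level of all 214 ran from 114 to 425 CPM in 8 heads and stood at 37.5 CPM in A1A and 34.1 CPM in A2A. It ran from 53.1 to 68.8 CPM in 9 abdomens and stood at 102 CPM in A79. The sum of A1A and of A2A was thus below that of every abdomen. The filter on low counts was rerun without the libraries, so that more members were tested. Without A1A and A2A, 78 of 120 tested were called higher in heads, without A78 and A79, 74 of 119, and without all 4, 81 of 118. Over all genes, calls higher in heads went from 4158 to 3804, 3893 and 3844 in these settings. Only 3 of the 82 members had all heads above all abdomens with the 4 libraries in place (3.66%, against 14.2% of all genes tested). Without the 4 libraries 34 of the same 82 did, while the count over all genes went from 1647 to 2218. RSEM shares reads among similar receptor genes by estimation, so single members are less certain than the family.

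*Or1* ran from 6.58 to 168 CPM in heads with a median of 62.6 CPM, and from 0 to 22.3 CPM in abdomens with a median of 0.377 CPM. Its log2 difference was 5.35 ± 1.15 (adjusted p = 0.000326, edgeR), and stood at 8.03 ± 0.73 without A79 and 8.39 ± 0.40 without all 4 libraries. The 2 lowest heads were A2A at 6.58 and A1A at 9.08 CPM, the highest abdomen was A79, and every other abdomen lay at or under 0.825 CPM. *Or296* (4.30 ± 0.51), *Or217* (6.39 ± 0.78) and *Or20*, which had no count in any abdomen, were the 3 members whose heads all lay above the abdomens. *Or255* was the most abdominal, with at most 0.141 CPM in heads and 0.312 to 33.2 CPM in abdomens (-7.73 ± 0.76), and *Or87* was also lower in heads throughout (-3.50 ± 0.49).

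Taste and odorant-binding genes had few members with enough counts to be tested. Of 13 tested gustatory receptors out of 46, 3 were higher in heads (23.1%) and 5 lower (38.5%), with a median of -0.63. The balance depended on the filter and on the libraries. With no filter on low counts 22 were higher and 7 lower, and without A1A and A2A, 6 were higher and 6 lower of 16 tested. *Gr3* had medians of 4.78 CPM in heads and 0.483 CPM in abdomens (log2 difference 3.51 ± 0.47). *Gr32* had 665 counts in heads and 3 in abdomens, a ratio of 284 with a 95% counting interval of 96.9 to 1380. *Gr2* and *Gr45* were lower in heads, with log2 differences of -2.65 ± 0.32 and -5.05 ± 0.65. Of 2 tested odorant-binding proteins, which carry odorants to receptors, *OBP77* had 445 counts in heads and 1 in abdomens, a ratio of 571 with an interval of 102 to 22600, and *OBP19* did not pass the test (-0.61 ± 0.34, adjusted p = 0.111, edgeR). Counting intervals and floors cover counting error only.

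Genes of the mitochondrial respiratory chain and ATP synthase were mostly higher in heads. Of 65 members, all tested, 60 were higher in heads (92.3%) and 3 lower (4.62%), with a median log2 difference of 0.70. The summed level ran from 14480 to 21180 CPM in F15 heads against 9827 to 11650 CPM in F15 abdomens, and from 20670 to 32930 CPM in F3 heads against 15970 to 20780 CPM in F3 abdomens. Differences of single genes were mostly small. 9 members had all heads above all abdomens, 13.8% of the list against 14.2% of all genes tested. *Ndufv1*, a core subunit of complex I, ran from 543 to 852 CPM in heads and from 259 to 346 CPM in abdomens (1.15 ± 0.08, adjusted p = 3.79e-11, edgeR). *Ndufa8*, another complex I subunit, differed by 1.65 ± 0.13. Complex II was represented by *Sdha* (0.44 ± 0.18) and *SdhB* (0.63 ± 0.13), complex III by *Uqcrfs1* (0.79 ± 0.09), complex IV by *Cox4I1* (0.58 ± 0.09) and ATP synthase by *Atp5d* (1.32 ± 0.15). *Atp5a1* and *Atp5b*, also subunits of ATP synthase, did not pass the test, at 0.41 ± 0.23 and 0.11 ± 0.23. With 1 library left out or another setting, from 48 to 61 members were higher.

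The 3 members of that list that were lower in heads stood far from the rest. *Cox6c* had no count in any head and from 0.794 to 13.5 CPM in abdomens, at least 376-fold lower in heads against a floor of 3 counts over the 10 heads. *Cox7a1* had at most 1.80 CPM in heads and 2.46 to 65.8 CPM in abdomens (-4.28 ± 0.75). *Cyc1l*, a cytochrome c1-like gene, had medians of 0.160 and 4.35 CPM (-4.32 ± 0.61), while *Cyc1* itself was higher in heads, by 0.29 ± 0.08. All 3 were low in female abdomens. On a scale shared by all groups, *Cox7a1* averaged 6.52 CPM in F15 and 45 CPM in F3 abdomens of 1N males, 1.87 and 4.63 CPM in those of 2N males, and 0.0928 and 0.0335 CPM in F14 and F2 abdomens of 2N females. *Cyc1l* averaged 2.7 and 6.65 CPM in F15 and F3 abdomens of 1N males and 1.04 and 0.384 CPM in F14 and F2 abdomens of 2N females, and *Cox6c* had no count in the last.

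The abdomen held many more genes that were nearly absent from the other tissue. A gene was called restricted here if its mean was at least 5 CPM in its tissue and every library of the other tissue lay under 0.5 CPM. 43 genes were restricted to the head and 286 to the abdomen. Their summed level ran from 2298 to 4191 CPM per head and from 13380 to 52910 CPM per abdomen. The restricted head genes had a median mean of 17.1 CPM and 10 of at least 100 CPM, and the restricted abdomen genes a median of 36.3 CPM and 84 of at least 100 CPM. 95.3% of the head genes and 92.3% of the abdomen genes were protein-coding, against 95.9% of all genes tested, and 4.65% and 7.69% were long non-coding RNA genes, against 3.81%. Without A1A, A2A, A78 and A79 the counts were 51 and 319. A symbol other than a LOC number was carried by 14% of the head set, 3.5% of the abdomen set and 5.27% of all genes tested. These were 6 head genes (*Cpap3-a1*, *HisCl1*, *NV_30029*, *NV_30145*, *Pdf* and *SDR*) and 10 abdomen genes (*CCE-D4*, *CCE-E7*, *CYP6AS33*, *Cad*, *Cox6c*, *Or255*, *SP7*, *SP72*, *SP9* and *TctexA*).

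The restricted abdomen genes were abundant in male abdomens of both ploidies and low in female abdomens. Summed over group means on a scale shared by all groups, they stood at 22290 CPM in F15 and 49380 CPM in F3 abdomens of 1N males, and at 21210 and 29520 CPM in those of 2N males, against 1033 and 454.8 CPM in F14 and F2 abdomens of 2N females. Of the 286 genes, 207 reached 5 CPM in 2N male abdomens and 24 in 2N female abdomens, where 200 lay under 0.5 CPM. Most of the restricted head genes were also present in heads of 2N females. They summed to 4112 and 3020 CPM in F15 and F3 heads of 1N males, 3886 and 2385 CPM in those of 2N males, and 3241 and 4493 CPM in F14 and F2 heads of 2N females. Of the 43, 35 reached 5 CPM in 2N male heads and 36 in 2N female heads, where 3 lay under 0.5 CPM. Both sets were chosen on haploid males, so these values are a description.

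**Figure D3:**
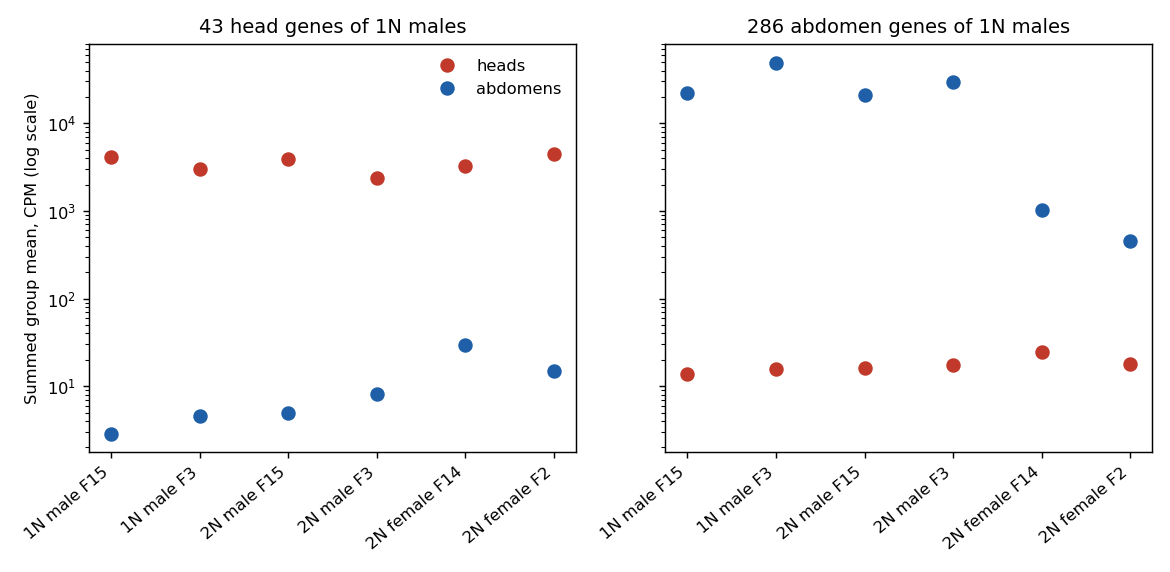
Summed group mean CPM, on a log scale, of the 43 genes restricted to heads (left) and the 286 restricted to abdomens (right) of 1N males, in heads and abdomens of 1N males, 2N males and 2N females. The abdomen set stands between 21210 and 49380 CPM in male abdomens, at 1033 and 454.8 CPM in F14 and F2 female abdomens, and at 13.9 to 24.4 CPM in heads.

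The 8 genes with the largest contrasts toward the abdomen carried no symbol, and in 6 of them each group of 2N females averaged at most 0.145 CPM. *LOC100121809* had no count in any head and 27.1 to 678 CPM in abdomens with a median of 275 CPM, at least 20500-fold lower in heads. F15 abdomens averaged 74.7 ± 38.3 CPM and F3 abdomens 556 ± 102 CPM (SD, n = 5 each), without overlap. *LOC103316219* and *LOC100119104* also had no count in heads and were at least 14500-fold and 10500-fold lower there. *LOC103317397*, *LOC103316717* and *LOC103317413* had 1, 2 and 1 counts over all heads. *LOC103316717* had 163065 counts in abdomens, a ratio of abdomen over head of 63500 with a 95% counting interval of 17600 to 525000. Ratios for *LOC103317397* and *LOC103317413* were 85400 (15300 to 3380000) and 55300 (9930 to 2180000). *LOC100679870* ran from 501 to 5984 CPM in abdomens with A78 the highest, and had 4 counts in heads (-15.69 ± 0.61).

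*LOC100116567* was the most abundant of them in 2N females. It ran from 237 to 2327 CPM in abdomens of 1N males with a median of 1114 CPM, against at most 0.0708 CPM in heads (log2 difference -15.58 ± 0.26, adjusted p = 3.06e-20, edgeR). On the shared scale its abdomens averaged 311 and 2250 CPM in F15 and F3 1N males and 382 and 91.8 CPM in F14 and F2 2N females. *LOC100121809*, by contrast, averaged 0 and 0.119 CPM in abdomens of F14 and F2 2N females, and 23.6 and 158 CPM in those of F15 and F3 2N males. *LOC100679870* averaged 0.00662 and 12.4 CPM in F14 and F2 abdomens of 2N females, and 2310 and 617 CPM in F15 and F3 abdomens of 1N males.

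Genes that lay next to each other in the gene order of the reference assembly Nvit_psr_1.1 were often in the same extreme set. Of 236 genes at least 32-fold higher in heads that the assembly places, 54 had a neighbour in the set (22.9%), and 3.59% of the 11307 tested genes outside it had a neighbour in it. Of 668 genes at least 32-fold lower in heads, 214 had one (32%), against 9.52% of 10875 genes outside. The abdomen set held 9 runs of 4 or more genes in a row, the longest of 9 genes, and the head set held none. One run was *SP9*, *LOC100114811*, *SP7* and *LOC100114739*, with log2 differences of -7.62, -11.18, -9.07 and -10.17. Another held *LOC100119680* and *LOC100679870*, at 1360 and 1390 CPM in abdomens of 1N males. Neighbouring copies of a gene can share reads in the estimated counts, so members of a run are not independent.

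Serine proteases digest food in the gut, and other members act in immunity and in seminal fluid. Of 37 tested members of 51, 4 were higher in heads (10.8%) and 25 lower (67.6%), with a median log2 difference of -1.96. All heads lay below all abdomens for 13 of them (35.1%), against 12.6% of all genes tested. *SPH103*, a serine protease homologue, ran from 2.21 to 71.3 CPM in heads with a median of 18.2 CPM, against 1298 to 5445 CPM in abdomens with a median of 3173 CPM (-7.92 ± 0.55, adjusted p = 5.85e-11, edgeR). Its heads averaged 48.9 ± 17.3 CPM in F15 and 3.57 ± 1.53 CPM in F3 (SD, n = 5 each), and its difference was less negative in F15 by 2.90 ± 0.50 (adjusted p = 0.000542, edgeR). *SP19* was the member with the lowest adjusted p (3.37e-14, edgeR), with 0.614 to 2.53 CPM in heads and 141 to 422 CPM in abdomens.

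*SP50* (-10.04 ± 0.79), *SP72* (-9.44 ± 0.75), *SP132* (-9.20 ± 0.55), *SP7* (-9.07 ± 0.68), *SP102* (-8.99 ± 0.67) and *SP49* (-8.14 ± 0.72) had the lowest values on the log2 scale. In each of them all heads lay below all abdomens. *SP120* and *SP68* went the other way, at 3.96 ± 0.44 and 2.09 ± 0.28, and *SP120* had medians of 75.2 CPM in heads and 4.32 CPM in abdomens. The family's summed level ran from 474.5 to 1270 CPM in heads and from 3137 to 11450 CPM in abdomens, where A78 stood at 4514 CPM and the other F15 abdomens at 9489 CPM or more.

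Cytochrome P450 enzymes oxidise hormones, hydrocarbons and foreign compounds. Of 42 tested of 43, 7 were higher in heads (16.7%) and 28 lower (66.7%), with a median of -1.24. *CYP314A1*, which in *Drosophila* is *shade*, the enzyme that turns ecdysone into active 20-hydroxyecdysone, ran from 15.9 to 35 CPM in heads and from 166 to 349 CPM in abdomens (-3.25 ± 0.14, adjusted p = 1.89e-14, edgeR). Enzymes of the CYP4G subfamily make cuticular hydrocarbons in insect oenocytes. *CYP4G43* ran from 0.213 to 268 CPM in heads with a median of 83.2 CPM, and from 1648 to 13440 CPM in abdomens with a median of 7268 CPM (-6.43 ± 0.68), and was among the 5 genes with the highest abdomen counts. *CYP4G44* had medians of 6.36 and 292 CPM (-5.64 ± 0.41).

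*CYP6AS33* was the P450 furthest toward the abdomen, at -9.32 ± 0.54, with at most 0.264 CPM in heads and 11.3 to 93.5 CPM in abdomens. Besides *CYP9AG7*, the pseudogene *CYP9AG8P* (2.22 ± 0.18), *CYP4AB15* (5.85 ± 1.01), *CYP6CK11* (4.26 ± 0.50) and *CYP6AQ8* (4.86 ± 0.92) were higher in heads. *CYP6AQ8*, chosen after its values were seen, was one of the 13 genes that were high in A79 and low in A1A and A2A, so its heads and abdomens overlapped. Without A79 it differed by 6.34 ± 0.80 and without all 4 libraries by 6.82 ± 0.46. The summed level of the family ran from 2151 CPM in A1A to 23990 CPM in A71 among heads, where *CYP9AG7* took most of the F15 sum, and from 7503 to 31210 CPM in abdomens.

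Carboxylesterases and glutathione transferases cleave esters and conjugate glutathione in detoxification. Of 29 such genes, 6 were higher in heads (20.7%) and 22 lower (75.9%), with a median of -1.59. *GstS2* ran from 5.14 to 14.3 CPM in heads and from 69.8 to 308 CPM in abdomens (-4.52 ± 0.28), and *GstS6* differed by -2.77 ± 0.19. *CCE-E7* had at most 0.235 CPM in heads, and averaged 56.1 ± 35.6 CPM in F15 abdomens and 2.64 ± 2.63 CPM in F3 abdomens (SD, n = 5 each). *GstD3* and *CCE-B2* were higher in heads, by 3.77 ± 0.46 and 3.15 ± 0.45. *CCE-B6*, chosen after its values were seen, was higher by 4.95 ± 0.95, with A79 its highest abdomen at 56.2 CPM, and by 5.94 ± 0.80 without A79 and 6.17 ± 0.43 without all 4 libraries.

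Listed storage, muscle, ribosomal and immune genes that passed the test were lower in heads, with 1 exception, *ppo3*. Of 7 storage and lipid genes, 4 were lower in heads and the other 3 did not pass the test. *Hex70b* and *Hex109*, hexamerin storage proteins made by the fat body, differed by -2.09 ± 0.64 and -1.27 ± 0.27, *Acads*, an acyl-CoA dehydrogenase, by -1.22 ± 0.21, and *Lsd2*, a lipid droplet protein, by -0.77 ± 0.24. Of 3 muscle genes, *Tm1*, a tropomyosin, and *Zasp66*, a Z-disc protein, were lower in heads (-1.05 ± 0.20 and -1.35 ± 0.23), and *Tm2* did not pass the test (-0.12 ± 0.08, adjusted p = 0.171, edgeR). Of 4 ribosomal protein genes, 3 were lower in heads, with log2 differences of -1.40 ± 0.11 for *Rpl7a*, -1.11 ± 0.15 for *Rpl6* and -0.71 ± 0.29 for *Rpl41*. Of 8 immune genes, 1 was higher in heads, *ppo3*, a prophenoloxidase of melanisation (4.55 ± 0.63), and 4 were lower, *ppo1* (-2.59 ± 0.51), *Gnbp1-2* (-2.13 ± 0.20), *serpin5* (-1.59 ± 0.21) and *Imd* (-0.85 ± 0.14). The defensins *Def1-1* and *Def1-2* did not pass the test, at 0.39 ± 0.78 and -0.93 ± 0.50.

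**Figure D4:**
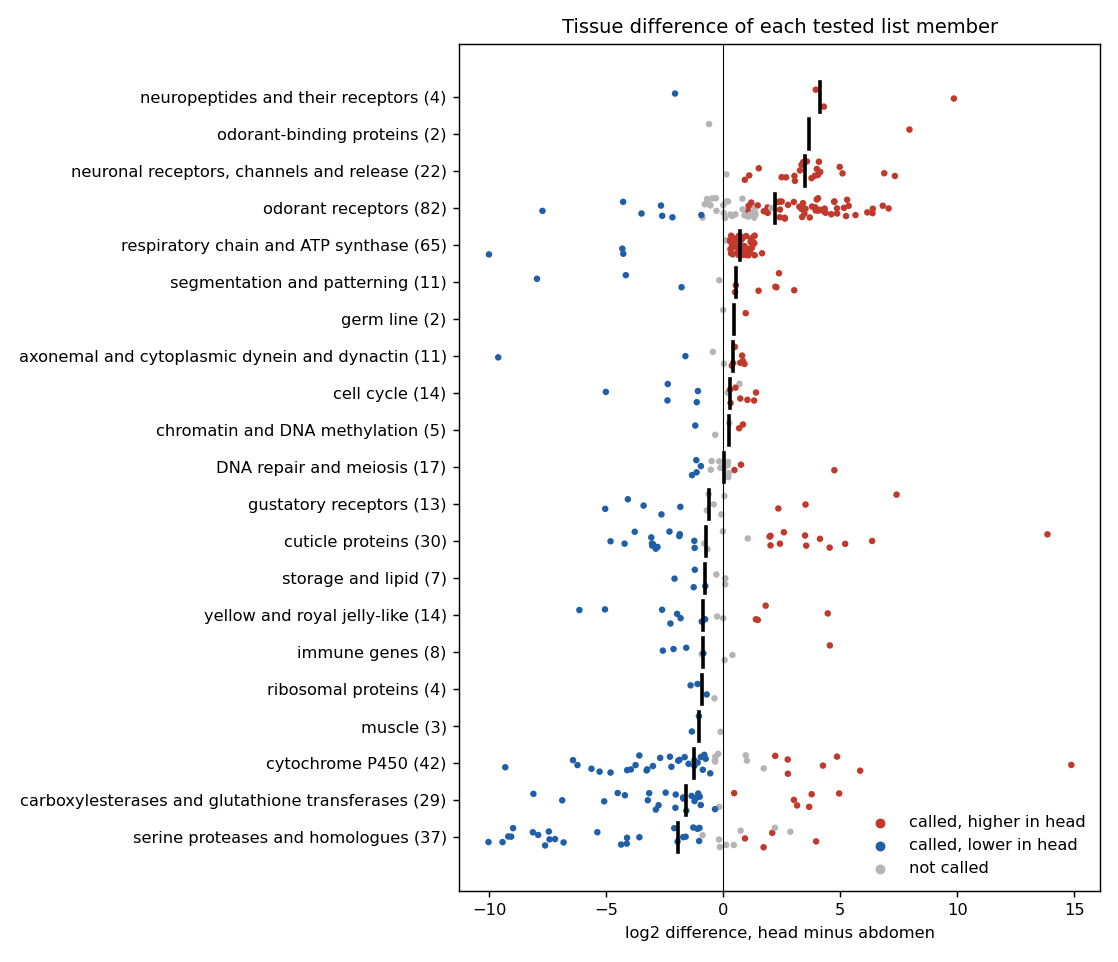
Log2 difference, head minus abdomen, of each tested member of 21 gene lists, with a black bar at the list median and the number tested in brackets. Neuronal genes and odorant receptors have medians of 3.49 and 2.19, respiratory chain genes lie close together around 0.70 with 3 members far below, and serine proteases, esterases and transferases, and P450 genes have medians of -1.96, -1.59 and -1.24.

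Of 30 cuticle proteins tested of 48, 12 were higher in heads (40%) and 14 lower (46.7%), with a median of -0.75. Of all genes tested, 35.8% were higher and 35.1% lower. *Cpap3-a1* (6.36 ± 0.73) and *Cpap3-d2* (4.54 ± 0.43), proteins with chitin-binding domains, were higher in heads, as was *apd-3* (5.21 ± 0.73), while *CPR19* (-3.79 ± 0.28) and *CPLCP1* (-4.82 ± 0.38) were lower. *CPR19* ran from 81.8 to 224 CPM in heads and from 534 to 2901 CPM in abdomens. The family's sum in heads, which held *CPR48*, ran from 1477 to 5835 CPM in F15 and from 7162 to 29070 CPM in F3, against 1907 to 4751 CPM in abdomens. Yellow and royal jelly-like genes, related to cuticle pigmentation in *Drosophila*, were 4 higher (28.6%) and 8 lower (57.1%) of 14 tested. *Y-y* (4.46 ± 0.48) and *Y-f* (1.81 ± 0.23) were higher in heads, and *Y-x1c* (-6.16 ± 0.47) and *Y-x1b* (-5.06 ± 0.45) were lower.

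Patterning genes, which place body regions in the embryo, differed in both directions. Of 11 tested of 12, 7 were higher in heads (63.6%) and 3 lower (27.3%), with a median of 0.53. *Cad* (caudal), a homeobox gene of the posterior body, ran from 7.95 to 19.4 CPM in abdomens and reached at most 0.207 CPM in heads (-7.97 ± 0.46, adjusted p = 3.16e-12, edgeR). *Eve* (-4.17 ± 0.79) and *hairy* (-1.79 ± 0.24) were also lower in heads. *pros* (prospero), a factor of neural lineages in *Drosophila*, was higher by 2.22 ± 0.29, *Kr* by 3.03 ± 0.36, *Eyg*, an eye development factor in *Drosophila*, by 2.38 ± 0.33, and *Scr*, a Hox gene of the labial and first thoracic segments, by 2.27 ± 0.75. *Kr* had medians of 5.62 CPM in heads and 0.672 CPM in abdomens.

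Genes listed under the cell cycle, DNA repair and the germ line showed no single direction in haploid males. Of 14 cell cycle genes, 7 were higher (50%) and 5 lower (35.7%) in heads, against 35.8% and 35.1% of all genes tested. *cycB*, a mitotic cyclin, had at most 0.746 CPM in heads and a median of 10.9 CPM in abdomens (-5.02 ± 0.70), *fzy*, an activator of the anaphase-promoting complex, differed by -2.38 ± 0.34, *cycD* by -2.39 ± 0.46 and *Cdk1* by -1.14 ± 0.38. *kinesin-B* (1.31 ± 0.10), *Smc2*, a condensin subunit (1.03 ± 0.14), and *Cenp-a*, the centromeric histone (1.39 ± 0.22), were higher in heads. DNA repair and meiosis genes were 3 higher (17.6%) and 4 lower (23.5%) of 17, both under the shares of all genes tested. *Rad51c* (-1.34 ± 0.35), *Hop2* (-1.16 ± 0.37), *Gaj* (-1.15 ± 0.18) and *Smc6* (-0.96 ± 0.09) were lower in heads, and *Msh4*, known from meiotic crossing over in other species, was higher at a low level, with at most 1.26 CPM in heads and 0.161 CPM in abdomens (4.74 ± 0.78).

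Of 2 tested members of the list named germ line, *oskar* was higher in heads by 0.95 ± 0.29 (adjusted p = 0.00628, edgeR), at levels of at most 7.11 CPM in either tissue. *Tudor-sn* did not pass the test. The list was drawn from symbols, and its summed level of 157 to 329 CPM per library was mostly that of *Tudor-sn*, so it is no measure of germ cells. In a fit of all 16 groups *oskar* missed the threshold, with an adjusted p of 0.0562. Chromatin genes were 2 higher and 1 lower of 5, with *Mbd*, a methyl-CpG-binding protein, and *Scm*, a Polycomb group protein, higher (0.67 ± 0.09 and 0.83 ± 0.24), and *Dnmt1a*, a maintenance DNA methyltransferase, lower (-1.20 ± 0.18). Among dynein and dynactin genes, which move cargo along microtubules, 7 of 11 were slightly higher in heads (63.6%), such as *Dctn2* (0.83 ± 0.11) and *Tctex1* (0.80 ± 0.12). *Arp1*, the filament protein of dynactin, was lower at -1.63 ± 0.25, and *TctexA*, a light chain of the Tctex family, at -9.62 ± 0.45. *TctexA* had at most 0.359 CPM in heads, and 22.9 ± 10.5 CPM in F15 and 91.1 ± 20.4 CPM in F3 abdomens (SD, n = 5 each). From 4 to 7 of the 11 were higher in heads under the other settings and with 1 library left out.

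Of the sex determination genes, *Tra* and *Dsx* differed between the tissues in the test over both generations. *Tra*, the *transformer* orthologue, a splicing factor whose knockdown founded the line, ran from 34.5 to 192 CPM in heads with a median of 56.8 CPM, and from 21.7 to 48.0 CPM in abdomens with a median of 31.8 CPM (1.21 ± 0.28, adjusted p = 0.000601, edgeR). A2A at 192 and A1A at 136 CPM were the highest heads. Within F15 the difference was 0.50 ± 0.31 and did not pass the test (adjusted p = 0.169, edgeR). Within F3 it was 1.91 ± 0.32 and passed (adjusted p = 2.8e-05, edgeR). Without A1A and A2A the difference was 0.32 ± 0.17 in F15 (adjusted p = 0.107, edgeR) and 1.06 ± 0.19 in F3 (adjusted p = 8.9e-05, edgeR). Over both generations it was 0.64 ± 0.15 without these 2 heads (adjusted p = 0.000911, edgeR). *Dsx* (doublesex), the factor that *transformer* proteins act on, ran from 112 to 278 CPM in heads and from 402 to 732 CPM in abdomens, with no overlap (-1.57 ± 0.16, adjusted p = 3.3e-08, edgeR). *Fru* (fruitless), chosen after its values were seen, did not pass the test, at 0.25 ± 0.20 (adjusted p = 0.249, edgeR). Against 2N females, the head minus abdomen value of 1N males was lower for *Tra*, at -1.48 ± 0.26 (adjusted p = 6.56e-06, edgeR), and for *Dsx*, at -3.49 ± 0.30 (adjusted p = 2.38e-12, edgeR). Counts per gene do not separate the sex-specific splice forms of these genes.

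The genes with the most counts were partly shared. *LOC107981454*, a transcribed pseudogene, and *LOC116418257* were among the top 5 of both tissues and did not pass the test, at 0.53 ± 0.26 and 0.21 ± 0.26. *LOC107981454* passed it without A1A and A2A, at 0.59 (adjusted p = 0.0486, edgeR), and without A78, at 0.62 (adjusted p = 0.0272), and both passed it without A1A, A2A, A78 and A79. *LOC107981453* was 0.67 ± 0.16 higher in heads. *LOC100114997* ran from 542 to 13620 CPM in heads and from 1386 to 89890 CPM in abdomens (-1.78 ± 0.27), and *LOC100118781* had a median of 0.109 CPM in heads and 3855 CPM in abdomens (-11.88 ± 1.17). The 100 genes with the most counts took 22.8% to 29.5% of a head library and 23.5% to 32.7% of an abdomen library.

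The tissue difference was similar in both generations for most genes. Across the 11627 genes, which are not independent replicates, the F15 and F3 differences correlated at r = 0.911 (Spearman's rho 0.843), and 5755 genes passed the test in both generations with the same sign against 149 with opposite signs. The difference itself changed between generations for 2088 genes (18%), with a higher head minus abdomen value in F15 for 1229 (10.6%) and a lower one for 859 (7.39%). Of the 2088, 713 had opposite signs in the generations. The split by direction was unstable, since 58.9% of calls were higher, against 52.7% with RLE size factors, 37.2% with no filter on low counts and 35.2% without A1A and A2A. The count of lower calls became 1428 without A77, 1803 without A78, 1431 without A79, 1454 without A80, 1480 without A8, 1403 without A9, 1364 without A1A and 1491 without A2A. The count of higher calls became 808 without A79, 745 without A7 and 783 without A1A.

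Among the largest changes, *LOC103315799* averaged 1018 CPM in F15 heads and 19.8 CPM in F3 heads, against 0.244 CPM in F15 and 22.9 CPM in F3 abdomens (F15 minus F3 difference 12.17 ± 2.41, adjusted p = 0.0018, edgeR). Its F15 heads ran from 6.89 to 1880 CPM, so 1 head was within the F3 range. Its F3 abdomen mean rested on A10 at 106 CPM, with the other F3 abdomens from 0.873 to 4.06 CPM. The change ran from 8.77 to 12.8 under the alternatives. For *LOC100117498* it was the abdomens that moved, at 1.14 ± 1.03 CPM in F15 and 84.2 ± 36.7 CPM in F3, with heads at 14.8 and 8.87 CPM (6.91 ± 0.62). *LOC100117200* (9.16 ± 1.56), *LOC100679631* (8.52 ± 2.01) and *LOC100114905* (7.98 ± 0.99) also had a higher head minus abdomen value in F15. For *LOC100679631* the F15 heads A74 and A75, at 2.12 and 0.899 CPM, lay within the F3 head range of 0 to 9.06 CPM. *LOC100114362* went the other way, with abdomens at 366 ± 220 CPM in F15 and 1.35 ± 0.320 CPM in F3 (-7.55 ± 1.11), as did *LOC103318006* (-5.80 ± 1.40).

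*CYP336B1* had the lowest adjusted p of the named genes (4.19e-08, edgeR). Its abdomens averaged 357 ± 120 CPM in F15 and 12.6 ± 2.72 CPM in F3, while heads stood at 147 and 126 CPM, so that the head minus abdomen difference was -1.28 ± 0.21 in F15 and 3.32 ± 0.22 in F3 (change -4.60 ± 0.30). *CYP6CK7* (3.64 ± 0.53) and *Cox7a1* (4.67 ± 0.77) were less abdominal in F15, and *apd-3* (-3.58 ± 0.98) and *CYP4AB15* (-4.88 ± 1.54) were less head-biased. *apd-3*, named with the cuticle proteins, averaged 4.35 CPM in F15 heads and 152 CPM in F3 heads. *CYP9AG7* passed the test at 6.65 ± 1.80 (adjusted p = 0.0147, edgeR), and stood at 2.36 with an adjusted p of 0.758 without the F3 abdomen A10, the abdomen with the highest level. *CYP4AB15* lay between 0.05 and 0.0603 in adjusted p when any of A73, A74, A75, A79, A4, A5 or A6 was left out.

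*LOC116416141* (-7.92 ± 2.13), *LOC100122003* (-5.93 ± 1.64) and *LOC103317439* (-5.77 ± 1.54) rested on the heads A1A and A2A. Without those 2 libraries their values were -1.88, -1.45 and -1.10 with adjusted p of 0.449, 0.385 and 0.286 (edgeR). *Tra* and *Dsx* both passed the test of a change between generations, at -1.41 ± 0.44 (adjusted p = 0.03, edgeR) and 0.94 ± 0.24 (adjusted p = 0.0109, edgeR). Both values were smaller without the heads A1A and A2A. Without them *Tra* stood at -0.75 ± 0.25 (adjusted p = 0.0453, edgeR) and *Dsx* at 0.55 ± 0.23 and missed the threshold (adjusted p = 0.0972, edgeR). Without all 4 libraries both missed it, at -0.66 and 0.54 (adjusted p of 0.0718 and 0.108, edgeR).

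Counts by list also changed when the 4 libraries were left out. So did those over all genes, where higher calls went from 1229 to 1150 and lower calls from 859 to 1899. Of 37 serine proteases, 8 had a higher head minus abdomen value in F15 (21.6%, against 10.6% of all genes tested), and without all 4 libraries 8 were higher and 3 lower of 38. Of 42 P450 genes, 9 were higher (21.4%) and 2 lower (4.76%, against 7.39%), and without the 4 libraries 6 and 4 of 43. Cuticle proteins changed for 4 each way of 30 (13.3%), a share near that of all genes. Of 22 neuronal genes 1 was lower (4.55%), and without the 4 libraries 5 were (22.7%), in a setting where lower calls also rose over all genes.

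**Figure D5:**
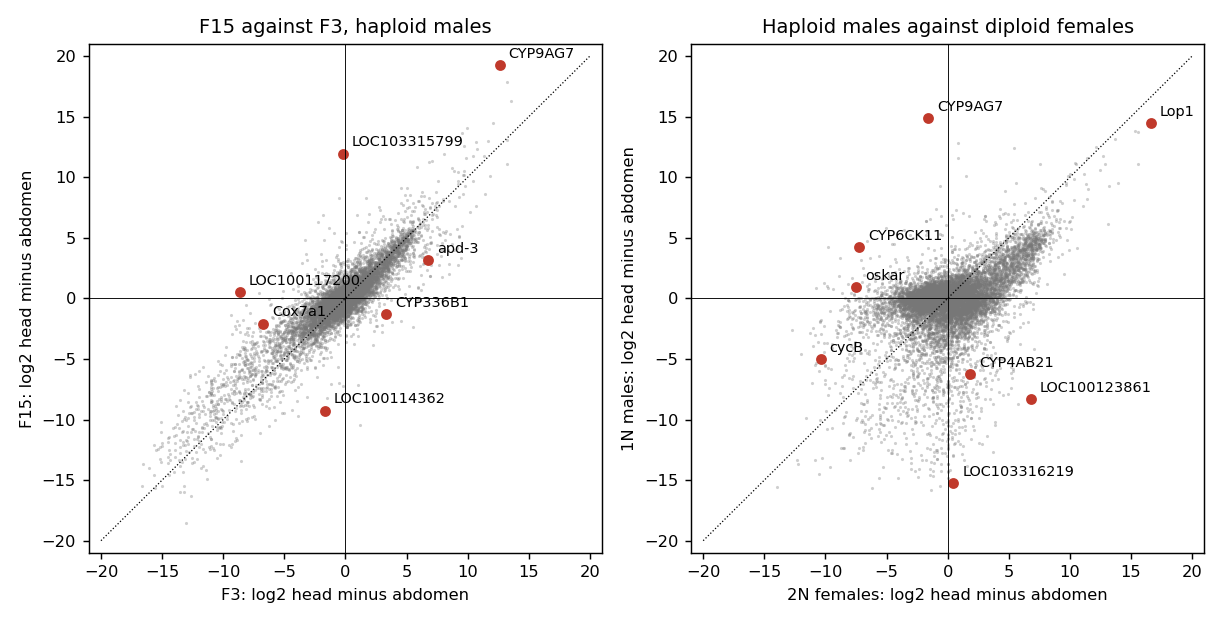
Log2 difference, head minus abdomen, of each gene in F15 against F3 haploid males (left, 11627 genes) and in haploid males against diploid females (right), with the line of equal values dotted and named genes in red. Points lie near the line on the left (r = 0.911) and spread widely on the right (r = 0.483), where a column of genes with low values in males has values near 0 in females.

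The tissue differences of haploid and diploid males were close for most genes. Across 11627 genes the 1N and 2N differences correlated at r = 0.947 (rho 0.919). The difference between the ploidies passed the test for 1668 of 12355 genes (13.5%), with a higher head minus abdomen value in 1N for 856 (6.93%) and a lower one for 812 (6.57%). Of the 1668, 1275 had the same sign in both ploidies. In a fit of all 16 groups, 806 genes passed. *Cox7a1* was more abdominal in 1N males, at -2.40 ± 0.58 (adjusted p = 0.00639, edgeR), as were *SP43* (-2.38 ± 0.62) and *CYP4AB21* (-1.68 ± 0.41). On the shared scale *CYP4AB21* averaged 40.3 and 375 CPM in F15 and F3 abdomens of 1N males and 23 and 125 CPM in those of 2N males.

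*CYP4G44* was less abdominal in 1N males (2.06 ± 0.53), and *CPR35*, a cuticle protein, was more head-biased (1.40 ± 0.27). *CYP4G44* averaged 446 and 156 CPM in F15 and F3 abdomens of 1N males and 621 and 900 CPM in those of 2N males, and missed the threshold in the fit of all 16 groups (adjusted p = 0.0787, edgeR). *LOC100121718* (4.87 ± 1.49), *apd-3* (3.59 ± 0.64) and *LOC100117180* (3.57 ± 0.67) had higher values in 1N males, and *LOC100679894* (-5.25 ± 1.21) a lower one. *LOC100117180* averaged 582 and 132 CPM in F15 and F3 abdomens of 1N males and 586 and 775 CPM in those of 2N males. By list, respiratory chain genes differed for 7 higher (10.8%) and 1 lower of 65 and P450 genes for 8 (18.6%) and 2 of 43, against 6.93% higher and 6.57% lower of all genes tested, and 4 of 14 cell cycle genes were lower. In the fit of all 16 groups, 3 respiratory chain genes were higher, 1 P450 gene was called, lower, and 1 cell cycle gene was lower.

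Several of these calls were lost with single libraries left out. *LOC100114362* (3.82 ± 1.08) had an adjusted p of 0.0558 without A75. *LOC100122003* (3.45 ± 1.03) had one of 0.121 without A2A and 0.0629 without A72. *LOC100114502* (-6.88 ± 2.26) missed the threshold without any 1 of A77, A79, A88, A90, A83, A10, A1A, A2A, A16, A20 or A15A, with adjusted p from 0.051 to 0.0866. *LOC100121718* lost its call without the 2N abdomens A89 or A16. *LOC103316931* (-5.86), *LOC103316570* (-5.61) and *LOC103317893* (-5.41) had no count in heads of 1N males, so their values are no bounds. They were at least 850-fold, 1080-fold and 1100-fold lower in heads than in abdomens of 1N males, and lost their calls without the 2N heads A85 or A14, A81 or A12, and A14.

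Females differed far more from haploid males, in a comparison where sex and ploidy change together and generations are 1 apart. Across the 11627 genes the differences of 1N males and 2N females correlated at r = 0.483 (rho 0.418). The difference between them passed the test for 9482 of 12559 genes (75.5%), with higher head minus abdomen values in 1N males for 4702 (37.4%) and lower ones for 4780 (38.1%). Of the 9482, 4330 had opposite signs. All 14 cell cycle genes had higher values in 1N males, with a median of 3.33, as did 14 of 17 DNA repair and meiosis genes, all 5 chromatin genes and all 4 ribosomal protein genes. *cycB* averaged 5.58 and 13.9 CPM in F15 and F3 abdomens of 1N males, and 593 and 1270 CPM in F14 and F2 abdomens of 2N females (5.31 ± 1.34, adjusted p = 0.000616, edgeR). *oskar* averaged 3.28 and 2.24 CPM in 1N male abdomens and 509 and 678 CPM in 2N female abdomens (8.40 ± 0.38). *Hb* (hunchback), a gap gene whose RNA is laid down in eggs, was also higher by this measure (10.66 ± 1.48).

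Other lists had more members with a lower than with a higher head minus abdomen value in 1N males, beside 38.1% lower and 37.4% higher of all genes tested. Lower values were found for 19 of 23 neuronal genes (82.6%), 26 of 43 P450 genes (60.5%), 24 of 44 serine proteases (54.5%) and 19 of 33 cuticle proteins (57.6%), with 1, 6, 5 and 2 members higher. Respiratory chain genes, with 27 of 65 lower (41.5%) and 3 higher, had a share of lower calls near that of all genes, and odorant receptors, with 39 of 172 lower (22.7%) and 9 higher, a smaller one. Levels are shares of the counts, the cell cycle and germ-line genes above were high in female abdomens, and their part in these lower values was not tested. *CYP9AG7* averaged 13800 and 2260 CPM in F15 and F3 heads of 1N males, 7330 and 2360 CPM in those of 2N males, and 0 and 0.113 CPM in F14 and F2 heads of 2N females (1N males minus 2N females 17.47 ± 2.42, adjusted p = 1.66e-07, edgeR). *CYP6CK11* was also higher in 1N male heads, at 56.7 and 35.3 CPM against 0 and 0.200 CPM in 2N female heads (11.46 ± 0.85). *Lop1* did not pass the test of a difference (-1.72 ± 1.05, adjusted p = 0.137, edgeR).

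*LOC116416788* (17.02 ± 3.06), *LOC100679858* (16.04 ± 4.31), *LOC100115936* (14.46 ± 1.65) and *LOC100678660* (12.21 ± 2.44) were high in female abdomens. *LOC116416788* averaged 849 and 313 CPM there and at most 0.152 CPM in the 1N male groups. On the other side, *LOC100123861* (-15.09 ± 1.02) and *LOC100115442* (-14.53 ± 1.18) averaged 584 and 222 CPM in F3 abdomens of 1N males and had no count in 2N female abdomens. *LOC100116454* (-15.90 ± 2.13), *LOC103316219* (-15.85 ± 2.27) and *LOC103316717* (-15.61 ± 4.27) averaged 644, 196 and 1120 CPM in F3 abdomens of 1N males and at most 0.145 CPM in 2N female abdomens. *CYP4AB21* (-8.09 ± 0.34), *Or255* (-8.61 ± 1.38) and *CCE-E7* (-8.48 ± 1.03) were male-abdominal in the same way. *CYP4AB21* averaged 0.793 and 0.489 CPM in F14 and F2 abdomens of 2N females. Without single libraries some of these calls were lost, those of *LOC103316717* without the female heads A61 or A22, of *LOC103316219* without A23, of *Or255* without A65, of *LOC100679858* without the male head A72, and of *LOC100678660* without A75 (adjusted p = 0.126, edgeR).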

How the data were processed

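RNA was taken from heads and abdomens, and libraries were made from polyadenylated RNA, per the labels' protocols. STAR 2.7.11a and RSEM 1.3.1 are named in the submitters' processing notes; for the build and gene models, names were not given in the sources used here. The authors deposited RSEM expected counts, of which 17.5% of values were not whole, and a table of TPM for 14613 genes, which was not used in a test. Expected counts were rounded to whole numbers and fitted with edgeR 4.0.16 in R 4.3.3 (robust quasi-likelihood, TMM scaling, filterByExpr over the 4 groups), with Benjamini-Hochberg adjustment over all genes tested and a threshold of 0.05. The tissue difference had generation as a block, and interactions were contrasts of group means. CPM divides a count by the TMM-scaled library size. Code was tested on simulated data.

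Genes were named by rule. These were the called genes with the highest and lowest differences above 20 CPM and without overlap between tissues, the same above 5 CPM for genes with a symbol, the 5 most abundant genes of each tissue, up to 4 called members of each list, the marker genes, and the called genes with the largest interactions. Members and lists were chosen with earlier results of these data known. Lists are patterns of gene symbols, and 5.27% of genes tested carried a symbol other than a LOC number. A list can therefore leave out members of its family. Alternatives were RLE scaling, 2 other filters on low counts, DESeq2 1.42.0, other designs, leaving out each library, and leaving out libraries that stand apart; A78 and A79, and the refits of *Tra*, *Dsx* and the genes high in A79, were chosen after seeing the data. Gene symbols came from a RefSeq table (14621 genes matched), used for names, biotypes and gene order. Library totals set the precision, and intervals and floors cover counting error only.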

Additional observations from a re-analysis of the deposited data

Results flagged for a closer look

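In 45 of 403 groups of 5 libraries, 1 library lay farther from the others than Dixon's critical value of 0.71 allows. Chance gives about 1 in 20 for independent groups of normally distributed values. The rule was run on CPM without a log, and list sums share genes with single entries. Whether 45 of 403 is more than chance gives can therefore not be told. A78, an abdomen of F15, accounted for 15 of them. It was the highest of its group for *LOC100679870* at 5980 CPM (others 1010 to 1600), *LOC103316219* at 514 (165 to 216), *Cox6c* at 7.48 (0.794 to 1.92) and *SP19* at 422 (141 to 149). It was also the highest for *Y-x1b* at 53.8 CPM (13.3 to 15.8), *Gnbp1-2* at 90.6 (38.6 to 50.7), *Rpl6* at 1460 (539 to 781) and *Gaj* at 17.1 (7.8 to 8.91). It was the lowest for *Akhr* at 72.3 CPM (190 to 233), *CPR19* at 534 (1340 to 1420) and *Smc6* at 46.3 (64.7 to 71.1). The summed levels of 4 lists were also lowest in A78, at 79.8 CPM for neuropeptides and their receptors (others 197.3 to 240.4), 3412 for carboxylesterases and glutathione transferases (8749 to 9662), 4514 for serine proteases (9489 to 11450) and 1907 for cuticle proteins (2800 to 3095).

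A79, also an F15 abdomen, was the highest for *Or1* at 22.3 CPM (0 to 0.28), *CYP9AG8P* at 3.6 (1.18 to 1.87), *GstD3* at 5.7 (0.686 to 1.92) and the sum of odorant receptors at 102 (55.72 to 68.78).

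Among F15 heads, A73 was the highest for *CPR48* at 4170 CPM (235 to 1350), *CPR19* at 224 (104 to 135), *Or296* at 17 (7.1 to 9.73), *Tm1* at 1230 (657 to 822) and the sum of cuticle proteins at 5835 (1477 to 2662). A71 was the highest for *LOC100313520* at 220 CPM (135 to 158), *Ndufv1* at 852 (686 to 720) and the sum of chromatin and DNA methylation genes at 191 (149.7 to 159.5). A75 was the highest for *LOC100118781* at 15 CPM (0 to 0.321) and *Gr2* at 3.59 (1.81 to 2.31), and A74 for the sum of gustatory receptors at 22.5 (19.05 to 19.71).

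Among F3 heads, A2A was the highest for *Gr2* at 3.92 CPM (1.96 to 2.51), *SP19* at 2.53 (0.87 to 1.07) and the sum of yellow and royal jelly-like genes at 659 (350.8 to 429.8). A3 was the highest for *Tm1* at 2100 CPM (723 to 1030) and the muscle sum at 2364 (846.8 to 1194), and A4 for *CYP4G43* at 96.7 (0.213 to 28).

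Among F3 abdomens, A7 was the highest for *Tm1* at 4060 CPM (2190 to 2490), the muscle sum at 4515 (2507 to 2866) and the sum of odorant-binding proteins at 10.7 (1.95 to 3.933). A9 was the highest for *SP50* at 373 CPM (69.4 to 154) and *SP7* at 18.2 (4.66 to 7.67) and the lowest for *Arp1* at 1640 (1930 to 2040). A8 was the highest for *CYP6AS33* at 93.4 CPM (39.7 to 52) and *Or255* at 4 (0.312 to 1.23), and A10 for *CPR48* at 5.34 (0 to 1.39). The part of handling, dissection or RNA quality in any of these was not tested.

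The head minus abdomen difference itself differed between F15 and F3 for the named genes in the interaction test of edgeR. On the log2 scale, F15 minus F3, it was higher for *LOC103315799* (12.17), *LOC100117200* (9.16), *LOC100679631* (8.52), *LOC100114905* (7.98), *LOC100117498* (6.91), *CYP9AG7* (6.65), *Cox7a1* (4.67) and *CYP6CK7* (3.64). It was lower for *LOC116416141* (-7.92), *LOC100114362* (-7.55), *LOC100122003* (-5.93), *LOC103318006* (-5.80), *LOC103317439* (-5.77), *CYP4AB15* (-4.88), *CYP336B1* (-4.60) and *apd-3* (-3.58).

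It also differed between 1N and 2N males. On the log2 scale, 1N minus 2N, it was higher for *LOC100121718* (4.87), *LOC100114362* (3.82), *apd-3* (3.59), *LOC100117180* (3.57), *LOC100122003* (3.45), *CYP4G44* (2.06) and *CPR35* (1.40). It was lower for *LOC100114502* (-6.88), *LOC103316931* (-5.86), *LOC103316570* (-5.61), *LOC103317893* (-5.41), *LOC100679894* (-5.25), *Cox7a1* (-2.40), *SP43* (-2.38) and *CYP4AB21* (-1.68).

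Between 1N males and 2N females sex and ploidy change together and cannot be told apart. The difference, male minus female on the log2 scale, was higher for *CYP9AG7* (17.47), *LOC116416788* (17.02), *LOC100679858* (16.04), *LOC100115936* (14.46), *LOC100678660* (12.21), *CYP6CK11* (11.46) and *Hb* (10.66). It was lower for *LOC100116454* (-15.90), *LOC103316219* (-15.85), *LOC103316717* (-15.61), *LOC100123861* (-15.09), *LOC100115442* (-14.53), *Or255* (-8.61), *CCE-E7* (-8.48) and *CYP4AB21* (-8.09). A fitted value against a group with few or no counts is no measure of a fold.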

How the results depend on the processing

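No named gene reversed its direction under the alternatives that were run, but the balance of calls over all genes did. Calls higher and lower in heads numbered 4158 and 4084, against 3841 and 4416 with RLE size factors and 3804 and 4630 without A1A and A2A, and genes changed between generations were 58.9% higher in F15, against 37.2% with no filter and 35.2% without A1A and A2A. The tissue difference was called for 8242 genes, from 7637 without the generation block to 8801 with no filter on low counts, and for 8068 to 8388 with 1 library left out. Genes whose difference was lower in F15 than in F3 numbered 859, against 1451 with no filter, 1316 with DESeq2, 1584 without A1A and A2A, 1661 without A78 and A79 and 1899 without all 4. With 1 library left out they ran from 646 to 1803, those higher in F15 from 745 to 1248, and all such genes from 1755 to 2919; the cause was not tested. In a fit of all 16 groups the interaction with ploidy was called for 806 genes, 393 higher and 413 lower. With 1 library left out it ran from 1352 to 1969, with 669 to 1038 higher and 681 to 931 lower. The median of all genes tested was 0.01 on the log2 scale, and ran from -0.10 without A1A, A2A, A78 and A79 to 0.02 with at least 10 counts in 10 libraries.

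Of the named genes, 104 of 107 kept direction and call for the tissue difference under every alternative that gave a value; *LOC107981454* and *LOC116418257* gained a call, and *oskar* lost it in the fit of all 16 groups (adjusted p = 0.0562, edgeR). For the interactions, 11 of 16 kept them for generation, 7 of 15 for ploidy and 10 of 15 for females, and the others lost the call under at least 1 alternative. Odorant receptors called higher in heads numbered 48, against 102 with no filter on low counts and 13 with at least 10 counts in 10 libraries. No paired analysis was possible because the library names are unique and the groups share no replicate number. Genes with few counts in both tissues could not be compared at these depths.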
